A study of Mus musculus with 96 samples.

Results

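The lysosomal cathepsins are proteases that digest proteins inside the lysosome. The genes described here are the aspartic protease Ctsd, the serine protease Ctsa and the cysteine proteases Ctsb, Ctsc, Ctsf, Ctsh, Ctsk, Ctsl, Ctss and Ctsz. They were taken by gene name from a table of read counts and make up 10 of its 56748 genes. Cathepsins are made as inactive precursors, are mostly carried to the lysosome by mannose 6-phosphate receptors, and become active as acid conditions remove the propeptide. There they break down proteins delivered by endocytosis and autophagy, and in liver autophagy is known to rise with fasting. Some members have narrower roles, such as collagen breakdown by cathepsin K and the trimming of antigen-presenting complexes by cathepsin S.

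The study asked how intermittent fasting changes gene activity in liver, skeletal muscle and cerebral cortex. Male C57BL/6 mice had free access to food (AL) or went through a daily fast of 16 h (IF), for 4 months from 6 weeks of age. Tissue was taken around the end of the daily fast, after perfusion with saline. Poly-A RNA of bulk tissue was sequenced with a directional protocol, and reads were counted per gene.

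The libraries fall into 12 groups of a tissue, a diet and a set of mice. Mice 1-16 are labelled male, with AL mice numbered 1 to 8 and IF mice 9 to 16. Mice 25-40 are labelled female, with AL mice 25 to 32 and IF mice 33 to 40, and their labels give the same AL and IF diets without an age or a duration. The sets were therefore described apart, since sex, set and any batch cannot be told apart. Each group holds 8 libraries, except for cortex of AL mice 1-16 with 7. The omitted cortex library, labelled AL mouse 1 and male, had 213 CPM of the X-inactivation transcript Xist and none of 4 Y-linked genes. CPM is the count of a gene divided by the library total and scaled to 1000000. In the other 47 libraries labelled male, Xist reached at most 0.612 CPM and the 4 Y-linked genes summed to at least 67.9. In the 48 libraries labelled female, Xist was at least 36.8 CPM. The 95 libraries used held between 26097314 and 49838004 counts, with a median of 36132954.

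Some libraries stood apart in markers of cell types. In liver these were IF mouse 16 and AL mouse 28, with the highest macrophage markers of their sets, and IF mice 9 and 10, with the highest haemoglobin mRNA. In muscle it was IF mouse 12, with the highest adipocyte markers, and in cortex of mice 25-40 IF mouse 36, with the lowest level of the neuron marker Snap25. Diet responses were also fitted without these libraries, and the liver comparisons of the sets without IF mouse 16 and AL mouse 28, and changed calls are given. The comparisons between tissues, and those of the sets in muscle and cortex, were run only with these libraries included. That choice was made after the data were seen. In cortex of mice 1-16, AL mouse 4 and IF mouse 11 had the highest hepatocyte markers of their diets, and no fit was run without them.

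Levels are mRNA levels in CPM. Differences are log2 fold changes fitted with edgeR after TMM scaling, a correction for libraries dominated by a few genes, and a positive value means a higher mRNA level in IF than in AL mice. Errors written after ± are standard errors (SE) of the log2 fold change. A gene was called higher or lower when its p, adjusted over all genes tested, was under 0.05. All 10 cathepsins passed the filter on low counts in every comparison. Markers of the tissues matched the labels. The most abundant marker of its list was albumin in liver, at a mean of 34988.7 CPM in AL mice 1-16, Acta1 in muscle at 43608.7 CPM, and Snap25 in cortex at 2428.3 CPM.

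The cathepsins differed between tissues by their place and by their level. In AL mice 1-16, Ctsh, an aminopeptidase, had a median of 87.6 CPM in liver, 14.2 CPM in cortex and 7.96 CPM in muscle, and the liver libraries lay above all others. Ctss, a protease of macrophages and microglia, had a median of 65.8 CPM in cortex, 7.86 CPM in liver and 3.9 CPM in muscle, with cortex above the others and liver overlapping muscle. Ctsd had its highest median in muscle, at 580 CPM, then 281 CPM in cortex and 112 CPM in liver, with no overlap between these groups. Ctsf stood at a median of 74.5 CPM in cortex, 23.1 CPM in muscle and 12.1 CPM in liver, again without overlap. Ctsa and Ctsz were highest in liver, and Ctsc was lowest in cortex, at a median of 5.72 CPM. In AL mice 25-40 the highest tissue was the same for 9 of the 10 cathepsins, and for Ctsk it was cortex in place of muscle, though these groups overlapped.

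Per kilobase of gene length, which allows genes to be compared, Ctsz led in AL liver of mice 1-16 with a median of 99.4 CPM per kilobase, and its libraries did not overlap those of Ctsb, the next, at 56.8. Ctsb overlapped Ctsd at 47.5, whose highest library reached into the range of Ctsz, and Ctsd overlapped Ctsa at 44.5. Lower down came Ctsl at 21.9, Ctsh at 19.5, Ctss at 5.79, Ctsc at 4.29, Ctsf at 2.39 and Ctsk at 0.494, of which Ctsl and Ctsh overlapped, as did Ctss and Ctsc. In AL muscle Ctsd led with a median of 247 CPM per kilobase, apart from Ctsb at 47.1. In AL cortex Ctsd at 120 and Ctsb at 106 CPM per kilobase overlapped, and Ctss came next at 48.4. Ctsk was the lowest member per kilobase in liver, Ctsh in muscle and Ctsc in cortex, in each of the 4 groups of a tissue.

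Fitted tissue differences were called for most cathepsins, as for most genes. Between liver and muscle of AL mice 1-16, 4 cathepsins were higher in liver and 3 lower, where 77.9% of all genes were called. Between liver and cortex 5 were higher in liver and 4 lower (83.1% of all genes), and between muscle and cortex 6 were higher in muscle and 2 lower (78.9%). In AL mice 25-40 the counts were 7 higher and 3 lower for liver against muscle (78.5% of all genes), 5 and 3 for liver against cortex (83.9%), and 5 and 2 for muscle against cortex (79.5%). The shares are close to those of the background. Ctsh was the most liver-weighted against muscle, with a log2 difference of 3.20 ± 0.115 (adjusted p = 1.11e-29) in mice 1-16. The direction depends on scaling for some pairs. Of the 49 called differences, 5 had the other direction on CPM, and all 5 compare muscle with cortex. These were Ctsa, Ctsl and Ctsz in mice 1-16, and Ctsa and Ctsk in mice 25-40. Ctsa in mice 1-16, for example, had a mean of 86.2 CPM in muscle and 125 CPM in cortex, a log2 ratio of -0.54, while the fitted difference was 0.47.

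**Figure D1:**
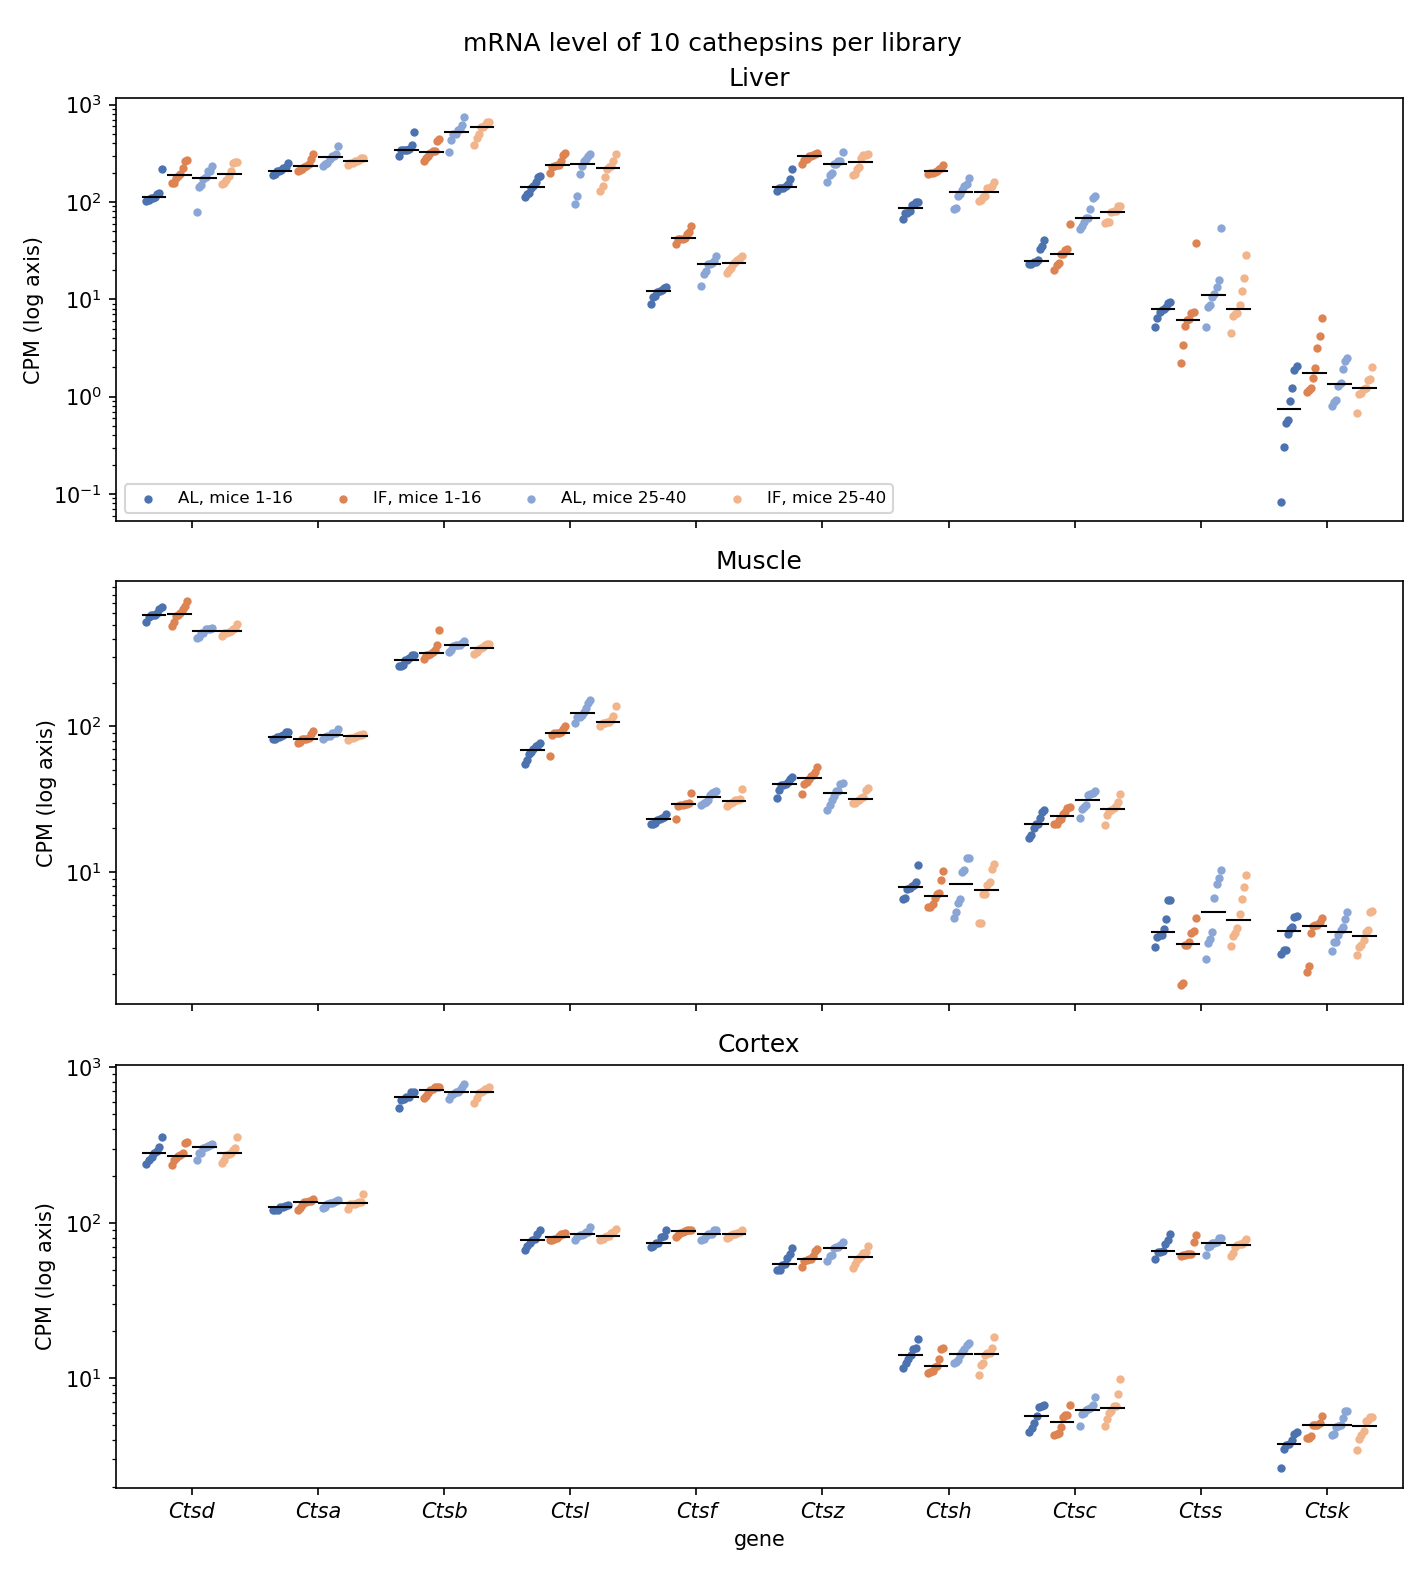
Level of each cathepsin in every library, in CPM on a log axis, with liver, muscle and cortex in separate panels and the groups by diet and set of mice in colour. Each point is a library and each bar a group median. In liver of mice 1-16 the IF points of Ctsf, Ctsh, Ctsl and Ctsz lie above all AL points, while the AL and IF points of mice 25-40 overlap for all 10 cathepsins. How many of all genes separate in this way was not counted.

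Fasting in mice 1-16 went with higher liver mRNA of 6 of the 10 cathepsins, namely Ctsd, Ctsf, Ctsh, Ctsk, Ctsl and Ctsz, and none was called lower. Over all 16204 genes tested, 44.6% were called, 23.5% as higher and 21.1% as lower. The median log2 fold change of the cathepsins was 0.67, and that of all genes 0.0595. The counts at an unadjusted p under 0.05 were 6 cathepsins and 8322 genes, and DESeq2 called 7 cathepsins, among them Ctss as lower, and 7566 genes. For 4 of the 10, Ctsf, Ctsh, Ctsl and Ctsz, every IF library lay above every AL library. The share of all genes that separate in this way was not counted, so the 4 have no background to be set beside. The summed level of the 10 genes rose from a median of 1095.8 CPM in AL to 1556.2 CPM in IF mice. Liver is a mixed tissue, and in bulk RNA a change in the number of cells of a type cannot be told apart from a change in RNA per cell.

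Ctsd encodes the main aspartic protease of the lysosome. Its AL libraries ranged from 104 to 218 CPM with a median of 112, and its IF libraries from 158 to 269 CPM with a median of 188. All 8 IF libraries lay above the AL median, but only 3 lay above AL mouse 2, which was far above the other AL mice. The log2 fold change was 0.63 ± 0.154 (adjusted p = 0.00184), and 0.66 ± 0.127 (adjusted p = 0.000215) with 7 mice per group, without AL mouse 2 and IF mouse 10. Ctsa, a serine carboxypeptidase that also stabilises the sialidase Neu1, had medians of 210 CPM in AL and 233 CPM in IF liver, and its log2 fold change of 0.08 ± 0.0902 was not called (adjusted p = 0.509).

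Ctsf, a cysteine protease with a long propeptide, had the largest change among the cathepsins. It ranged from 9.0 to 13.3 CPM in AL liver, with a median of 12.1, and from 36.7 to 57.1 CPM in IF liver, with a median of 42.4. The lowest IF library was well above the highest AL library. Its log2 fold change was 1.84 ± 0.0974, a 3.57-fold difference (adjusted p = 1.19e-12). Per kilobase, Ctsf moved from place 9 among the cathepsins in AL liver to place 7 in IF liver.

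Ctsh ranged from 67.0 to 99.7 CPM in AL liver with a median of 87.6, and from 195 to 242 CPM in IF liver with a median of 206. The IF values were tightly grouped and well apart from the AL values. The log2 fold change was 1.2 ± 0.103 (adjusted p = 1.9e-09). Ctsz, a carboxypeptidase, ranged from 129 to 217 CPM in AL and from 248 to 316 CPM in IF liver, with medians of 143 and 298. AL mouse 2 was the highest AL library here too, and still lay below every IF library. Its log2 fold change was 0.83 ± 0.106 (adjusted p = 9.32e-07). Ctsl, a broad endopeptidase, ranged from 113 to 186 CPM in AL and from 200 to 317 CPM in IF liver, with medians of 142 and 242. The diets met most closely here, with AL mouse 6 just under IF mouse 9. The log2 fold change was 0.71 ± 0.13 (adjusted p = 9.31e-05).

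Ctsk, best known for the breakdown of bone collagen, was the least abundant cathepsin in liver. AL libraries ranged from 0.0832 to 2.06 CPM with a median of 0.746, and IF libraries from 1.12 to 6.43 CPM with a median of 1.77. The groups overlapped, and 3 IF libraries lay above the AL range. The log2 fold change was 1.37 ± 0.484 (adjusted p = 0.0249). The call was lost with no filter on low counts (adjusted p = 0.0504), and without IF mice 9, 10 and 16 the log2 fold change was 0.91 ± 0.523 (adjusted p = 0.177).

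Ctsb, Ctsc and Ctss were not called by edgeR in these mice. Ctsb, an endopeptidase and dipeptidyl carboxypeptidase, had medians of 344 CPM in AL and 326 CPM in IF liver, and a log2 fold change of -0.19 ± 0.13 (adjusted p = 0.236). Without IF mice 9, 10 and 16 it was lower, at -0.32 ± 0.119 (adjusted p = 0.0341). Ctsc, which activates granule serine proteases, had medians of 24.9 and 28.9 CPM and a log2 fold change of 0.04 ± 0.173 (adjusted p = 0.864). Its sign turned without IF mouse 16, to -0.16 ± 0.130 (adjusted p = 0.343). Without IF mice 9, 10 and 16 it was -0.28 ± 0.131 (adjusted p = 0.095), and neither was called.

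Ctss ranged from 5.14 to 9.38 CPM in AL liver with a median of 7.86, and from 2.2 to 38 CPM in IF liver with a median of 6.19. In IF liver, 7 of 8 libraries lay below the AL median, and IF mouse 16 alone was far above all others. With all 8 mice per group, edgeR gave a log2 fold change of 0.21 ± 0.472 (adjusted p = 0.744). The sign turned without IF mouse 16, to -0.59 ± 0.216 (adjusted p = 0.0301), and without IF mice 9, 10 and 16, to -0.80 ± 0.224 (adjusted p = 0.00637). DESeq2 gave -0.54 ± 0.220 (adjusted p = 0.0314) with all libraries entered, while edgeR with RLE factors gave 0.19 ± 0.473 (adjusted p = 0.778). By default DESeq2 replaces outlying counts in groups of this size. Whether it replaced the count of IF mouse 16 was not checked, so its value may not use that library as it stands. 

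IF mouse 16 was also apart in markers of macrophages. The 17 markers of macrophages and microglia summed to between 210 and 351 CPM in AL liver with a median of 248, and to between 252 and 967 CPM in IF liver with a median of 321, the highest being IF mouse 16. None of the 17 was at 0 in these groups, and the most abundant was the Kupffer cell lectin Clec4f, with a mean of 99.7 CPM in AL and 141 CPM in IF liver. The complement gene C1qa stood at 151 CPM in IF mouse 16 and at most 60.7 CPM in the other IF livers. The ratio of mean sums, IF over AL, was 1.55 (exact permutation test, two-sided, p = 0.0219, adjusted p = 0.161 over 66 such tests). By edgeR, 4 of the 17 were higher in IF liver, Laptm5 (1.87, adjusted p = 0.000159), C1qa (0.99, adjusted p = 0.021), Marco (1.69, adjusted p = 0.0438) and Clec4f (0.41, adjusted p = 0.0468), and the other 13 were not called. In mice 25-40, AL mouse 28 had the highest sum at 1677.4 CPM, C1qa at 262 CPM and the highest Ctss level at 53.8 CPM. The part of macrophage content in the Ctss levels was not tested.

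**Figure D2:**
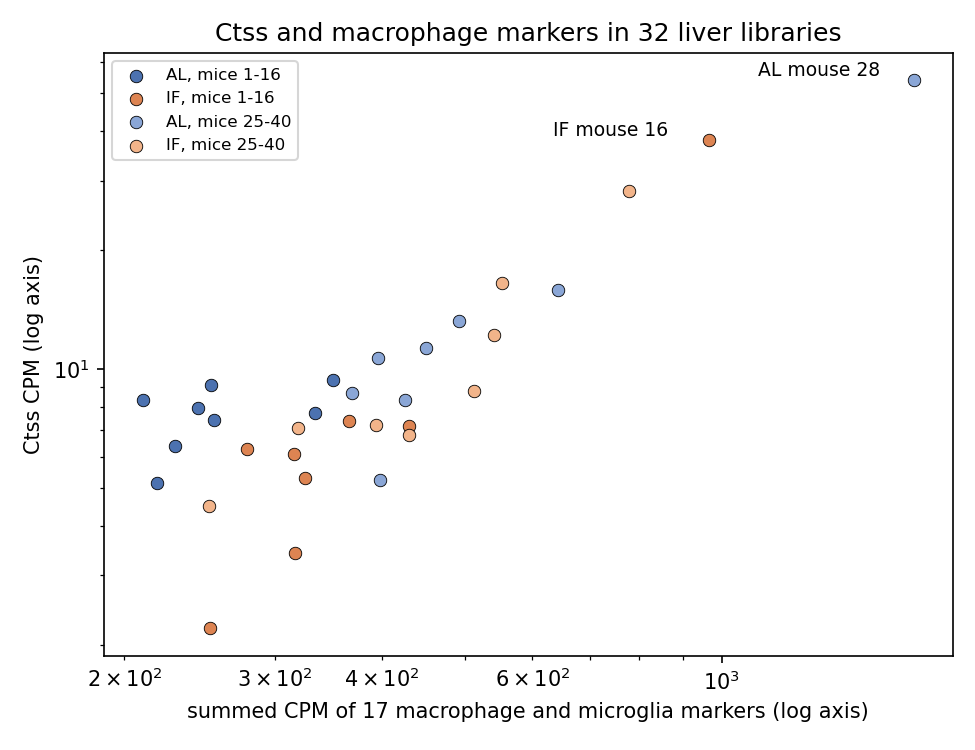
Ctss level against the summed level of 17 markers of macrophages and microglia in 32 liver libraries, both in CPM on log axes. Each point is a library, coloured by diet and set of mice. IF mouse 16 (38 CPM of Ctss) and AL mouse 28 (53.8 CPM) have the highest Ctss levels and the highest marker sums.

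Markers of other cell types also differed between AL and IF liver of mice 1-16. The 5 erythrocyte markers had a mean sum of 577 CPM in AL and 2575.5 CPM in IF liver, a ratio of 4.47 (exact permutation test, adjusted p = 0.0308), with Hba-a1 the most abundant and none at 0. The highest Hbb-bs levels were 2979.8 CPM in IF mouse 9 and 1713.1 CPM in IF mouse 10. Fibroblast markers had a ratio of 1.44 (exact permutation test, adjusted p = 0.0308), which rests mostly on Dcn at means of 50.2 and 88.8 CPM, with none at 0. Of this list Dcn (0.74), Lum (1.44) and Pdgfra (0.69) were called higher, while the collagens Col1a1 (-0.04), Col1a2 (0.13) and Col3a1 (-0.31) were not called. Neuron markers had a ratio of 1.51 (exact permutation test, adjusted p = 0.0205), which rests on Syt1 at means of 3.93 and 6.38 CPM, with Slc17a7 at 0 in AL liver. Adipocyte markers had a ratio of 0.0573 (exact permutation test, adjusted p = 0.0103), which rests on Cfd at means of 21.4 and 0.904 CPM, with Lep at 0 in IF liver. Without IF mice 9, 10 and 16, the log2 fold change was 1.84 ± 0.103 for Ctsf, 1.13 ± 0.106 for Ctsh, 0.83 ± 0.112 for Ctsz, 0.72 ± 0.134 for Ctsl and 0.50 ± 0.144 for Ctsd. The part of these cell types in the cathepsin levels was not tested further.

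Liver of mice 25-40 gave another picture, as edgeR called none of the 10 cathepsins, and 0% of the 15938 genes tested. At an unadjusted p under 0.05 the counts were 0 cathepsins and 919 genes, and DESeq2 called 0 cathepsins and 6 genes. Without AL mouse 28 the count was also 0. AL and IF libraries overlapped for all 10 cathepsins. Ctsf ranged from 13.6 to 28.1 CPM in AL liver with a median of 23.2, and from 18.7 to 27.6 CPM in IF liver with a median of 23.6. Both groups lay between the AL and the IF median of mice 1-16. Its log2 fold change was 0.15, with a 95% interval of -0.0962 to 0.387. Over the 10 cathepsins the log2 fold changes ran from -0.44 for Ctss to 0.30 for Ctsd, and their median was 0.028 beside -0.00948 for all genes.

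The response of liver to fasting differed between the sets of mice for 3 cathepsins, all with a smaller response in mice 25-40, where 23.7% of all genes were called. This count is close to the background. The difference in log2 fold change, mice 25-40 minus mice 1-16, was -1.66 ± 0.152 for Ctsf (adjusted p = 9.14e-10), -1.13 ± 0.186 for Ctsh (adjusted p = 1.94e-05) and -0.65 ± 0.187 for Ctsz (adjusted p = 0.00937). It was not called for Ctsl (-0.70 ± 0.281, adjusted p = 0.0671), Ctsk (-1.52 ± 0.581, adjusted p = 0.052) or Ctsd (-0.30 ± 0.253, adjusted p = 0.427). Without IF mouse 16 and AL mouse 28 the difference was called for Ctsk (-1.67 ± 0.595, adjusted p = 0.0398). Whether sex, age, regimen or batch underlies the difference cannot be told apart.

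The sets were also compared within each diet, a comparison added after the data were seen. In AL liver, 5 cathepsins were higher in mice 25-40 and none was lower, where 20.0% of all genes were called. Ctsc had the largest difference, with medians of 24.9 CPM in mice 1-16 and 68.5 CPM in mice 25-40 and a log2 difference of 1.29 ± 0.178 (adjusted p = 6.84e-07). Ctsf (0.74), Ctsz (0.47), Ctsh (0.41) and Ctsa (0.27) were the others. Without IF mouse 16 and AL mouse 28 the count was 3, since Ctsh (0.33, adjusted p = 0.0841) and Ctsa (0.25, adjusted p = 0.0702) were no longer called. Ctsa was also not called with RLE factors (adjusted p = 0.0546) or with a replicate block (adjusted p = 0.0634). The macrophage and microglia markers summed to between 210 and 351 CPM in AL liver of mice 1-16 and between 369 and 1677.4 CPM in mice 25-40. Medians also rose from mice 1-16 to mice 25-40 for T and NK cells (3.18 and 5.92 CPM) and B cells (12.6 and 20.0 CPM). They fell for adipocytes (22.3 and 0.0847 CPM), erythrocytes (569 and 522 CPM) and granulocytes and mast cells (2.64 and 2.36 CPM). The part of these cells was not tested. In IF liver, 2 cathepsins were higher and 3 lower in mice 25-40, where 37.5% of all genes were called. Ctsc (1.30) and Ctsb (0.74) were higher, and Ctsf (-0.92), Ctsh (-0.72) and Ctsk (-1.02) were lower. The call of Ctsk was lost with a replicate block (adjusted p = 0.104), and Ctss was called as higher without IF mouse 16 and AL mouse 28 (1.05 ± 0.302, adjusted p = 0.00615).

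In muscle of mice 1-16, Ctsf and Ctsl were higher and Ctss was lower in IF mice, so 3 of 10 cathepsins were called where 23.0% of all genes were, 11.5% as higher and 11.6% as lower. This share is close to the background. At an unadjusted p under 0.05 the counts were 5 of 10 cathepsins and 5309 of 15025 genes, and DESeq2 called 3 cathepsins and 3828 of 14733 genes. Ctsf ranged from 21.5 to 24.9 CPM in AL muscle with a median of 23.1, and from 23.2 to 35 CPM in IF muscle with a median of 29.1. Only IF mouse 11 fell within the AL range, and the log2 fold change was 0.27 ± 0.0624 (adjusted p = 0.00306). Ctsl ranged from 55.3 to 77.3 CPM in AL muscle with a median of 68.7, and from 62.9 to 101 CPM in IF muscle with a median of 89.8. Here too IF mouse 11 alone overlapped the AL mice, and the log2 fold change was 0.32 ± 0.0769 (adjusted p = 0.0046).

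Ctss in muscle ranged from 3.09 to 6.43 CPM in AL mice with a median of 3.9, and from 1.68 to 4.88 CPM in IF mice with a median of 3.24. The groups overlapped in most libraries. The log2 fold change was -0.56 ± 0.2 (adjusted p = 0.0486), and the call was lost with library size as the only scaling (adjusted p = 0.101), with no filter on low counts (adjusted p = 0.0805) and with a replicate block (adjusted p = 0.107). The macrophage and microglia markers had mean sums of 131 CPM in AL and 101 CPM in IF muscle, a ratio of 0.766 (exact permutation test, p = 0.0628, adjusted p = 0.287), with Lyz2 the most abundant and Clec4f at 0 in IF muscle. By edgeR, Lyz2 (-0.68, adjusted p = 0.00537), Tyrobp (-0.84, adjusted p = 0.0179) and Csf1r (-0.44, adjusted p = 0.0417) were lower, and all 12 markers tested had a negative log2 fold change, as Ctss had. Markers of other cells were lower too, the T cell gene Cd3e (-1.08, adjusted p = 0.0161) and the collagens Col3a1 (-0.44), Col1a1 (-0.58) and Col1a2 (-0.37) of the fibroblast list. Dcn (-0.18), Pdgfra (-0.04) and Lum (0.06) of that list were not called, and its sum had a ratio of 0.852 (exact permutation test, adjusted p = 0.373). Of the muscle fibre list, edgeR called Mb (-0.90, adjusted p = 0.0166), Mylpf (-0.29, adjusted p = 0.0128) and Ckm (-0.19, adjusted p = 0.0382) as lower. Acta1 (-0.16), Tnnt3 (-0.07) and Myh4 (-0.01) were not called. The sum of the fibre list had a ratio of 0.964 (exact permutation test, adjusted p = 0.514). The part of these cell types in the Ctss level was not tested.

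Ctsb in muscle ranged from 260 to 311 CPM in AL mice and from 291 to 459 CPM in IF mice, with IF mouse 12 far above the rest. Its log2 fold change of 0.18 ± 0.0704 was not called (adjusted p = 0.0755), but was with library size as the only scaling (0.25 ± 0.0773, adjusted p = 0.0215). Ctsh was called as lower with 7 mice per group (-0.36 ± 0.115, adjusted p = 0.0279) and not with all 8 (-0.25 ± 0.121, adjusted p = 0.15). With library size as the only scaling, 70.4% of all called genes in muscle were higher, against 49.8% with TMM. Adipocyte markers had mean sums of 118 CPM in AL and 759 CPM in IF muscle, a ratio of 6.45 (exact permutation test, adjusted p = 0.0205), with Cfd the most abundant and none at 0. The highest level of Adipoq was 181 CPM in IF mouse 12. Without this mouse, again 2 cathepsins were higher and 1 lower. The part of adipose tissue in the muscle values was not tested further.

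In muscle of mice 25-40, edgeR called none of the cathepsins, where 0.00653% of all genes, a single gene, were called. At an unadjusted p under 0.05 the counts were 0 cathepsins and 1644 genes, and DESeq2 called 0 cathepsins and 91 genes. The log2 fold changes of the cathepsins ran from -0.11 for Ctsl to 0.11 for Ctsd. The response differed between the sets for 2 cathepsins, close to the background of 14.2% of all genes, with a difference of -0.25 ± 0.0829 for Ctsf (adjusted p = 0.0389) and -0.41 ± 0.111 for Ctsl (adjusted p = 0.00983). Within AL muscle, 4 cathepsins were higher and 2 lower in mice 25-40 than in mice 1-16, where 38.4% of all genes were called. Ctsl (0.76 ± 0.0787), Ctsf (0.37), Ctsc (0.36) and Ctsb (0.20) were higher, and Ctsd (-0.55 ± 0.0712) and Ctsz (-0.37) were lower. Within IF muscle, Ctss (0.80) and Ctsl (0.35) were higher and Ctsd (-0.37) and Ctsz (-0.41) lower, where 28% of all genes were called.

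In cortex of mice 1-16, edgeR called none of the 10 cathepsins, where 7.21% of all genes were called. At an unadjusted p under 0.05 the counts were 3 of 10 cathepsins and 4400 of 18462 genes. DESeq2 called 3 cathepsins, Ctsb, Ctsf and Ctsk, all as higher, and 2259 of 17746 genes. Ctsf ranged from 70.2 to 89.5 CPM in the 7 AL libraries with a median of 74.5, and from 80.9 to 90.4 CPM in the 8 IF libraries with a median of 88.1. All 8 IF libraries lay above the AL median, with overlap at the top of the AL range. The log2 fold change was 0.18 ± 0.0558 (adjusted p = 0.0514 by edgeR and 0.0221 by DESeq2). Ctsk had medians of 3.79 and 4.98 CPM and a log2 fold change of 0.35 ± 0.122 (adjusted p = 0.0814 by edgeR and 0.0376 by DESeq2). Ctsb had medians of 641 and 718 CPM and a log2 fold change of 0.16 ± 0.0609 (adjusted p = 0.115 by edgeR and 0.0493 by DESeq2). The other 7 cathepsins had log2 fold changes between -0.18 for Ctsh and 0.11 for Ctsa. Ctss, at medians of 65.8 and 62.8 CPM, stood beside sums of the macrophage and microglia markers with means of 514 CPM in AL and 484 CPM in IF cortex, with Csf1r the most abundant and Clec4f and Vsig4 at 0 in AL cortex. Their part was not tested.

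In cortex of mice 25-40, edgeR again called none of the cathepsins, where 0.0109% of all genes were called, 2 in number. At an unadjusted p under 0.05 the counts were 0 cathepsins and 2069 genes, and DESeq2 called 0 cathepsins and 73 genes. Without IF mouse 36 the count was also 0. The log2 fold changes ran from -0.16 for Ctsz to 0.10 for Ctsc. For the difference in response between the sets, edgeR called 0 cathepsins, where 2.03% of all genes were called. Without adjustment, 3 of 10 cathepsins and 3007 of 19547 genes had p under 0.05. DESeq2 was not run for this comparison. Within AL cortex, Ctsk was higher in mice 25-40 (0.45 ± 0.124, adjusted p = 0.0142), where 12.6% of all genes were called. With a replicate block Ctsz was called as well (0.27 ± 0.0813, adjusted p = 0.0256). Within IF cortex edgeR called 0 cathepsins, where 4.32% of all genes were called, and at an unadjusted p under 0.05 the counts were 1 of 10 cathepsins and 3385 of 19547 genes.

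**Figure D3:**
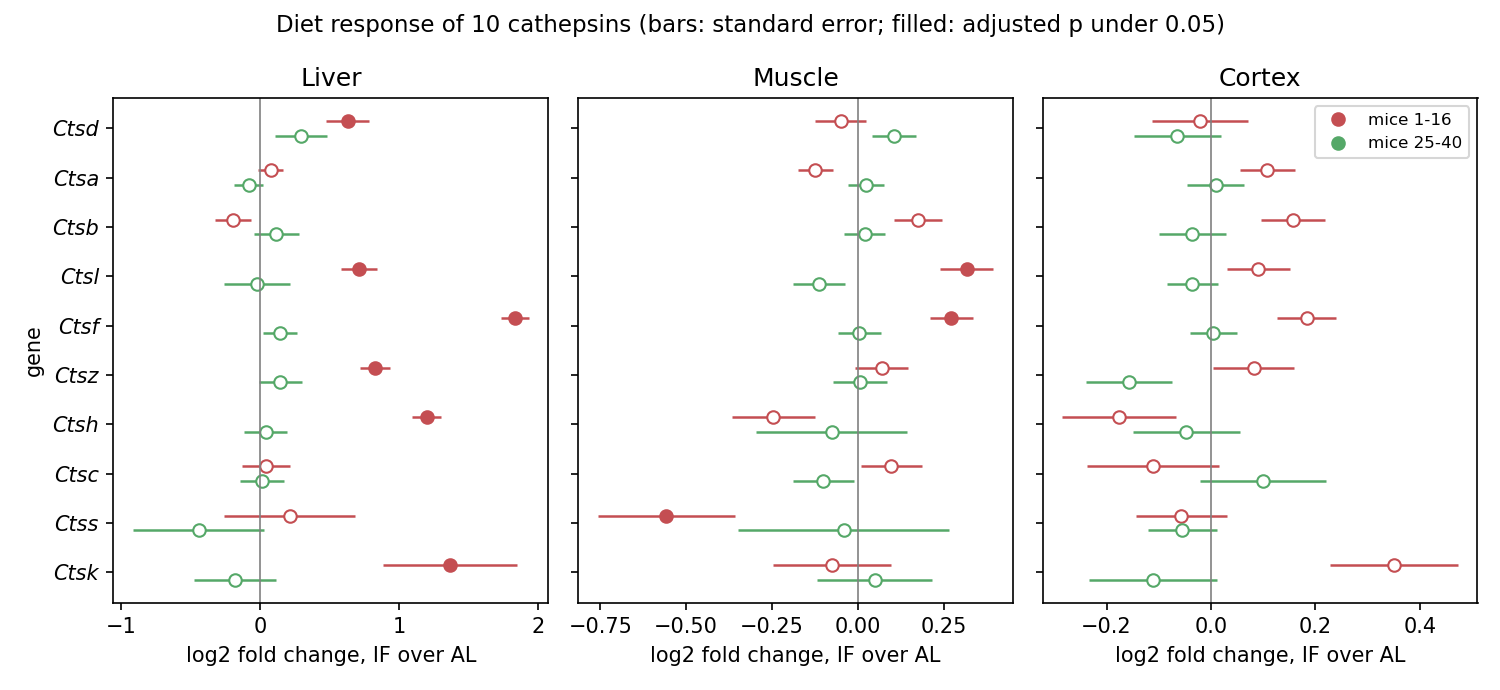
Log2 fold change of each cathepsin, IF over AL, in liver, muscle and cortex, for mice 1-16 and mice 25-40. Points are fitted values, bars are standard errors, and filled points have an adjusted p under 0.05. The filled points lie in mice 1-16, 6 in liver and 3 in muscle, and in liver the largest value is 1.84 for Ctsf.

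The response to fasting was compared between tissues in a joint fit of the 3 tissues. The main fit did not pair tissues of the same mouse. In mice 1-16 the response of liver exceeded that of muscle for 6 cathepsins and fell short of it for 1, where 33.7% of all genes were called. The difference was 1.52 ± 0.0947 for Ctsf (adjusted p = 3.2e-17), 1.40 ± 0.152 for Ctsh, 1.40 ± 0.456 for Ctsk, 0.71 ± 0.122 for Ctsz, 0.64 ± 0.174 for Ctsd and 0.35 ± 0.139 for Ctsl. The call of Ctsl was lost with mouse number as a block, which pairs the tissues of the same mouse (adjusted p = 0.0963). That of Ctsk was not fitted without IF mice 9, 10 and 16, without which its liver response was not called. Ctsb differed the other way, at -0.41 ± 0.138 (adjusted p = 0.0173). Against cortex, the response of liver was larger for 5 cathepsins and smaller for 1, where 30.1% of all genes were called. The difference was 1.63 ± 0.0955 for Ctsf (adjusted p = 6.51e-18), 1.35 for Ctsh, 0.72 for Ctsz, 0.62 for Ctsd and 0.59 for Ctsl, and -0.38 for Ctsb. In mice 25-40 edgeR called 0 cathepsins for liver against muscle (0.0611% of all genes) and 0 for liver against cortex (0.0564%). At an unadjusted p under 0.05 the counts were 0 cathepsins in both, and 2041 and 2494 of 21292 genes. Liver libraries are shared by these comparisons.

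Other genes of the lysosome were read from lists, to be set beside the 44.6% of all genes called in liver of mice 1-16, 23.5% as higher and 21.1% as lower. In IF liver, 15 of 28 genes of the lysosomal membrane and proton pump were higher and 3 lower, with Npc2 (1.78 ± 0.151), a cholesterol carrier, Ostm1 (1.22 ± 0.178) and Lamp1 (1.17 ± 0.139) changing most. Of 29 other hydrolases 11 were higher and 2 lower, led by Hexa (1.23 ± 0.124), Smpd1 (0.99 ± 0.113) and Gusb (0.87 ± 0.0997). Of 22 genes of sorting and activation 7 were higher and 3 lower. The largest changes were in Cln6 (2.68 ± 0.165), Scarb2 (1.85 ± 0.122), a lysosomal membrane receptor, and Grn (1.51 ± 0.126), the progranulin gene. Of 9 other lysosomal proteases tested, 2 were higher, Prcp (0.91 ± 0.192) and Lgmn (0.68 ± 0.19), and 2 lower, Cpq (-0.70 ± 0.152) and Scpep1 (-0.34 ± 0.109). The call of Lgmn was lost without IF mice 9, 10 and 16 (0.34 ± 0.139, adjusted p = 0.0554). The shares called of the hydrolases, the sorting genes and the other proteases were close to that of all genes. The median log2 fold change was 0.40 for the membrane and pump, 0.25 for the hydrolases, 0.11 for sorting and 0.19 for the other proteases, beside 0.0595 for all genes.

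The list of cathepsin inhibitors is not limited to inhibitors of the 10 members. Of 5 of its genes tested, 3 were higher in IF liver of mice 1-16 and 1 lower. Among the higher were Cstb (1.43 ± 0.138), a cystatin that blocks cysteine cathepsins, and the serpin Serpinb6a (1.77 ± 0.175). Whether the serpins of the list act on the members was not tested. Serpinb1a (-0.91 ± 0.297) was lower. Without IF mice 9, 10 and 16 it stood at -0.85 ± 0.378 and was not called (adjusted p = 0.0864). Of the 4 MiT/TFE factors, transcription factors known to drive lysosomal genes, Tfeb was higher (0.49 ± 0.0998, adjusted p = 0.000323) and Mitf lower (-0.88 ± 0.225, adjusted p = 0.00255). Tfec was higher (0.67 ± 0.267, adjusted p = 0.0443), but was not called with RLE factors (adjusted p = 0.0536), with a replicate block (adjusted p = 0.165), with 7 mice per group (adjusted p = 0.118) or without IF mice 9, 10 and 16 (adjusted p = 0.715). No gene of the 6 lists was called by edgeR in liver of mice 25-40, where 0% of all genes were called.

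Muscle of mice 1-16 had fewer calls in the lists, as it had over all genes (23.0% called, 11.5% as higher and 11.6% as lower). Of the membrane and pump, 11 of 28 genes were higher and 1 lower, with Npc2 (0.50 ± 0.149) the most changed. Of the 29 hydrolases 2 were higher and 3 lower, with Acp5 (2.06 ± 0.611) the most changed. Of the 22 sorting genes 2 were higher and 3 lower, led by Sort1 (0.32 ± 0.075). The shares called of hydrolases and sorting genes were at or below that of all genes. Of 6 inhibitors 1 was called. Cd74 (-0.58 ± 0.162), the invariant chain that cathepsin S trims, was lower, as was Tfeb (-0.26 ± 0.0647), 1 of 3 MiT/TFE factors tested. Of 8 other proteases 0 were called. The call of Npc2 was lost with no filter on low counts (0.50 ± 0.159, adjusted p = 0.0643). That of Cd74 was lost with a replicate block (-0.58 ± 0.217, adjusted p = 0.0985), and that of Acp5 without IF mouse 12 (1.68 ± 0.580, adjusted p = 0.0527). In cortex of mice 1-16, where 7.21% of all genes were called, Clcn7 (0.27 ± 0.0791) of the 28 membrane and pump genes was higher, and edgeR called 0 genes among the other proteases, the inhibitors, the sorting genes and the MiT/TFE factors. The call of Clcn7 was lost with library size as the only scaling (0.26, adjusted p = 0.0593) and with a replicate block (0.25, adjusted p = 0.076). It was also lost without AL mouse 2 and IF mouse 10 (0.26, adjusted p = 0.108) and with the omitted library kept (0.21, adjusted p = 0.167). In muscle and cortex of mice 25-40, where 0.00653% and 0.0109% of all genes were called, edgeR called 0 genes of these lists.

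Between the sets of mice, where 23.7% of all genes were called, the liver response was smaller in mice 25-40 for 6 and larger for 2 of 22 sorting genes, and the same counts were 10 and 2 of 28 for the membrane and pump, 7 and 0 of 29 for the hydrolases, 2 and 0 of 5 for the inhibitors, 1 and 1 of 10 for the other proteases and 1 and 1 of 4 for the MiT/TFE factors. Smaller and larger here mean a negative and a positive difference in log2 fold change, mice 25-40 minus mice 1-16. The share called of the hydrolases was close to that of all genes. The difference was called for Cln6 (-2.62 ± 0.295), Serpinb6a (-1.72 ± 0.281), Npc2 (-1.59 ± 0.296), Tfec (-1.30 ± 0.349), Hexa (-1.11 ± 0.2) and Prcp (-0.96 ± 0.261), each the most changed of its list. In muscle, where 14.2% of all genes were called, the negative and positive differences numbered 1 and 4 of the sorting genes, 6 and 3 of the membrane and pump, 5 and 1 of the hydrolases and 1 and 0 of 9 other proteases, with 0 called among inhibitors and MiT/TFE factors. The most changed in muscle were Acp5 (-2.52 ± 0.791), Cln8 (0.50 ± 0.102), Ctso (-0.46 ± 0.158) and Atp6v1a (-0.43 ± 0.112). In cortex, where 2.03% of all genes were called, edgeR called 0 genes of the 6 lists.

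The other lysosomal proteases give a scale for the cathepsins' levels. Legumain (Lgmn), which processes cathepsins, had medians of 27.5 CPM in liver, 26.7 CPM in muscle and 108 CPM in cortex over all libraries. Tpp1, a tripeptidyl peptidase, had medians of 78.7, 53.3 and 60.5 CPM in the same order. Ctso had 25.9, 6.73 and 22.5 CPM, Cpq 31.9, 10.2 and 8.68 CPM, Dpp7 31.2, 11.1 and 34 CPM, and Scpep1 21.4, 7.25 and 16.5 CPM. Prcp had medians of 5.37 CPM in liver and 5.21 CPM in muscle, and ranged from 7.67 to 15.1 CPM in cortex. These proteases were present in every library. Ctsw, a protease of T and NK cells, had medians of 3.6, 0.211 and 0.322 CPM, Napsa of 1.01, 0.555 and 1.07 CPM and Ctse of 0.132, 0.0476 and 0.0269 CPM. Ctsg had no count in any of the 32 liver libraries and at most 0.315 CPM in muscle and 0.121 CPM in cortex.

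Position may limit what was counted. On GRCm39, 4 of the 10 cathepsin genes, Ctsc, Ctsf, Ctsh and Ctsk, overlap no other gene of the table, and 6 do. Ctsf lies on chromosome 19 from 4905158 to 4910946, on the plus strand. Ctsb overlaps Fdft1 and Ctsz overlaps Nelfcd, both on the opposite strand, and Ctsa overlaps Pltp and Neurl2, also on the opposite strand. Lower in IF liver of mice 1-16 were Fdft1 (-0.50 ± 0.143, adjusted p = 0.00644), Pltp (-0.80 ± 0.255, adjusted p = 0.0166) and Nelfcd (-0.32 ± 0.0974, adjusted p = 0.0104), while Ctsz was higher. Fdft1 was higher in IF muscle of mice 1-16 (0.56 ± 0.0664, adjusted p = 3.2e-06). Neurl2 was not called (-0.34 ± 0.282, adjusted p = 0.35). Ctsd overlaps Gm49369 on its own strand, which held at most 0.115 CPM in any library. Ctsl overlaps Gm47123 and Gm49230, which had no count, and Ctss overlaps Hmgb1-ps5, with at most 0.436 CPM. How reads in shared stretches were counted was not stated.

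Promoters were compared because 6 members moved together in liver of mice 1-16. RefSeq promoters of 300 bases, 250 before to 50 after the start on GRCm38.p6, were matched for 8 of the 10 members, with 9 entries, and placed on GRCm39 by exact match. Ctsb and Ctsh had no entry. The letters CACGTG, the core known to be bound by MiT/TFE factors, are the same on both strands. They were in the promoters of 4 of the 8 members, Ctsa, Ctsd, Ctsf and Ctsl, and in 7.15% of all 32851 promoters. Ctsa has an entry with these letters and an entry without them, and was counted as a member with them. The 7.15% is a share of entries and not of genes. The letters TGTTTAC, known for forkhead factors and read on both strands, were in 0 of 8 and in 3.65% of all promoters, and TTCNNNGAA, known for STAT factors and the same on both strands, was in that of Ctsc and in 8.3% of all. Of the 6 cathepsins called higher in liver, Ctsd, Ctsf and Ctsl hold CACGTG, Ctsz and Ctsk do not, and Ctsh was not matched. Ctsa, with CACGTG in an entry, was not called in liver. A match describes letters and is not a bound site. The 3 promoters below are shown for these called members, with CACGTG in capitals. They lie at chr19:4904943-4905242 on the plus strand for Ctsf, at chr7:141941515-141941814 on the minus strand for Ctsd and at chr13:64518285-64518584 on the minus strand for Ctsl, all on GRCm39. The match begins at base 172 in Ctsf, at bases 6 and 153 in Ctsd and at base 15 in Ctsl. The starts differ from the bounds of the genes as counted. Ctsl was counted from 64507151 to 64518704, so its whole stretch, with the match, lies inside the counted gene. Ctsd was counted up to 141941775, so its match at base 153 also lies inside the counted gene.
Ctsf: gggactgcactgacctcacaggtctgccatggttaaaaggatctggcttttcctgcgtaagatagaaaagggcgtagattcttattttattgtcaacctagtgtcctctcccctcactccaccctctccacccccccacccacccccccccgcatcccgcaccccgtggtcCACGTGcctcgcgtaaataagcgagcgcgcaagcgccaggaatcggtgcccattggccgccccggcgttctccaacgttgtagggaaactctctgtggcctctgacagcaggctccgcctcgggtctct
Ctsd: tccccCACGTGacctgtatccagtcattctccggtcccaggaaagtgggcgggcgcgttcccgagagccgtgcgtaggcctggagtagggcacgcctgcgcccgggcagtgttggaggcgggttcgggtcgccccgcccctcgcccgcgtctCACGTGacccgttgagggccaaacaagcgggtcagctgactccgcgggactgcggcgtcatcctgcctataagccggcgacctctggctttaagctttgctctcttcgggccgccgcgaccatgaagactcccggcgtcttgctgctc
Ctsl: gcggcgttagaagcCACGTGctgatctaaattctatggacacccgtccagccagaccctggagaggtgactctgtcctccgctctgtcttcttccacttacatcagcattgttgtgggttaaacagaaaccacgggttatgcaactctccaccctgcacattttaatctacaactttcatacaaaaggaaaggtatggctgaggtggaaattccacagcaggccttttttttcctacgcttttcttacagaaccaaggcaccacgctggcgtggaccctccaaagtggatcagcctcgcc

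The genes with the most similar pattern were found over the means of the 12 groups, on log2 CPM. The highest Pearson r was with Mroh2a for Ctsa (0.9961), 4933404O12Rik for Ctsb (0.9832), 2310015A16Rik for Ctsc (0.9908), Ndufb8 for Ctsd (0.9914), Gde1 for Ctsf (0.9854), Urah for Ctsh (0.9977), Trpc4ap for Ctsk (0.9899), Sh2d2a for Ctsl (0.9799), Pkib for Ctss (0.9956) and Mir703 for Ctsz (0.9951). Next came Rnf43 for Ctsa (0.9958), 4632404H12Rik for Ctsb (0.9816), Gpr146 for Ctsc (0.9868), Polr1d for Ctsd (0.9914), Rbm17 for Ctsf (0.9853), Csrp2 for Ctsh (0.9966), Rpl9-ps6 for Ctsk (0.986), Nkg7 for Ctsl (0.9771), Smap2 for Ctss (0.9954) and Vkorc1 for Ctsz (0.9943). These values are descriptions over 18376 genes and mostly reflect levels between tissues, which the 12 groups share. Over the 32 liver libraries, Ctsf was most similar to Gnl1 (0.9541), Ttc3 (0.9421) and Pi4ka (0.9382).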

How the data were processed

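The values analysed are raw read counts per gene in 96 RNA-seq libraries, which the authors made with HISAT2 on Ensembl GRCm39 and featureCounts and deposited without normalization. The table's gene length, in bases, was deposited by the authors and was used only for levels per kilobase. How it was made was not stated, nor was the strand setting of the counting. The cathepsins and all gene lists were chosen with earlier results of these data known.

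CPM is the count divided by the total of the library. Tests used edgeR 4.0.16 with limma 3.58.1 in R 4.3.3, with TMM factors, robust quasi-likelihood dispersions and the expression filter at a minimum count of 10 and a total of 15, and p-values adjusted by the Benjamini-Hochberg procedure over all genes tested. Each tissue and set of mice was fitted alone for the diet, both sets jointly for the interaction of diet and set, and the 3 tissues jointly for tissue differences. The cortex library labelled AL mouse 1 was omitted because its sex genes contradict its label. Counts of markers were summed for 11 cell type lists and compared by exact two-sided permutation tests, 66 in all.

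AL and IF mice are different animals, so diets were not paired. Tissues of one mouse number come from the library names. The pairing was checked by correlating log2 CPM, centred within groups, and 0 of the pairs of tissues exceeded 0.1, with r from -0.084 to 0.095. Of the AL and IF pairs of one replicate number, 4 of 8 exceeded 0.1 in muscle of mice 25-40 and 1 or 2 in each other group.

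Genes named are the 10 cathepsins, the most changed called genes of each list (3 for liver of mice 1-16, otherwise 1), the proteases with their levels, and the 2 genes most correlated with each member (3 over liver for the most changed member). Scpep1, single markers besides the most abundant, and the genes that overlap a cathepsin lie outside that rule and were named after their values were seen.

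The alternatives were RLE factors, library size only, DESeq2 1.42.0 with its Wald test, and every gene with at least 1 count. Others were a replicate block, 7 mice per group (without AL mouse 2 and IF mouse 10) and the omitted library kept. DESeq2 ran with its default replacement of outlying counts. In the joint fits of the tissues the block was mouse number, so tissues of the same mouse were paired there. In cortex of mice 1-16, where AL mouse 1 was already omitted, the AL group held 7 libraries before AL mouse 2 was left out. Libraries left out because they stood apart, and the comparisons of the sets within a diet, were added after the data were seen. The fits were tested on simulated data, where every changed gene that was called had the right sign. Some fits of a difference in response recovered fewer changed genes than the limit first set, and the limit was lowered for these fits after that was seen. Levels, marker sums and promoters were computed in Python 3.11.15 with numpy 2.4.6, scipy 1.17.1 and pandas 2.3.3, and matplotlib 3.10.9 made the figures. Protein tables of the study were not used here.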

Additional observations from a re-analysis of the deposited data

Results flagged for a closer look

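In 11 of 120 groups of a cathepsin, tissue, diet and set, the highest or lowest library stood far from the others. Chance was taken to give about 1 in 20 groups, a rate that was not measured here. The groups share libraries, so they are not independent. In liver of mice 1-16, AL mouse 2 was the highest for Ctsb (520 CPM) and Ctsd (218 CPM), and IF mouse 16 for Ctsc (59.4 CPM) and Ctss (38 CPM). In liver of mice 25-40, AL mouse 28 was the highest for Ctss (53.8 CPM). In muscle of mice 1-16, IF mouse 12 was the highest for Ctsb (459 CPM), AL mouse 3 the highest for Ctsh (11.3 CPM) and IF mouse 11 the lowest for Ctsl (62.9 CPM). In muscle of mice 25-40, IF mouse 40 was the highest for Ctsf (37.3 CPM) and IF mouse 39 for Ctsl (138 CPM). In cortex of mice 25-40, IF mouse 36 was the highest for Ctsa (152 CPM), and the same library had the lowest Snap25 level of its group, at 1520.0 CPM.

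The response to fasting differed between groups by a test of the difference for 18 pairs of a cathepsin and a comparison. Over all genes, 23.7% were called for the sets in liver and 14.2% in muscle, to which the counts of 3 and 2 of 10 cathepsins are close. For liver against muscle and against cortex 33.7% and 30.1% of all genes were called, beside 7 and 6 of 10 cathepsins. Between the sets of mice the difference in log2 fold change, mice 25-40 minus mice 1-16, was -1.66 for Ctsf, -1.13 for Ctsh and -0.65 for Ctsz in liver, and -0.25 for Ctsf and -0.41 for Ctsl in muscle. For liver minus muscle in mice 1-16 it was -0.41 for Ctsb, 0.64 for Ctsd, 1.52 for Ctsf, 1.40 for Ctsh, 1.40 for Ctsk, 0.35 for Ctsl and 0.71 for Ctsz. For liver minus cortex it was -0.38 for Ctsb, 0.62 for Ctsd, 1.63 for Ctsf, 1.35 for Ctsh, 0.59 for Ctsl and 0.72 for Ctsz. The omitted cortex library labelled AL mouse 1 and male had Xist at 213 CPM.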

How the results depend on the processing

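Of 800 values of a cathepsin in a comparison under an alternative, 777 kept their side of the threshold and, where called, their direction. Signs of values called in neither were not counted, such as Ctss in liver of mice 1-16 at -0.33 with a replicate block. Of the others, 11 lost the call, 9 gained it in the same direction and 3 gained it with the sign turned. Those 3 are Ctss in liver of mice 1-16, not called at 0.21 with all libraries in edgeR, and at -0.54 with DESeq2, -0.59 without IF mouse 16 and -0.80 without IF mice 9, 10 and 16. Of 80 counts of cathepsins called, 77 stayed within 1.5 times. In cortex of mice 1-16 the count was 3 with DESeq2 in place of 0. Between the sets in AL liver it was 3 in place of 5 without IF mouse 16 and AL mouse 28, and in AL cortex 2 in place of 1 with a replicate block. The cause was not tested. Of 219 values of list genes, 203 kept their call and direction and 16 lost the call. Over all genes, the calls in cortex of mice 1-16 moved from 1332 to 382 with a replicate block and 498 without AL mouse 2 and IF mouse 10. They moved to 294 with the omitted library kept and 2259 with DESeq2. In liver of mice 1-16 library size as the only scaling moved the median log2 fold change of all genes from 0.0595 to 0.15. Of the alternatives, 200 of the 800 values come from ones added after the data were seen. Depth limits Ctsk in liver, whose lowest library holds 0.0832 CPM. Sex, set and batch cannot be told apart, and the age and regimen of mice 25-40 are not in the labels.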

Other observations

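The marker lists were compared between AL and IF mice in each tissue and set, and 6 of 66 tests had an adjusted p under 0.05. The other 60 had adjusted p from 0.0571 to 0.991. Besides those given for liver and muscle, adipocyte markers in cortex of mice 1-16 had mean sums of 1.97 CPM in AL and 1.19 CPM in IF mice, a ratio of 0.603 (exact permutation test, adjusted p = 0.0103), led by Retn. In liver of mice 1-16 the ratio of mean sums, IF over AL, was 0.864 for hepatocytes, 0.904 for osteoclasts, 1.1 for B cells, 2.57 for T and NK cells, 1.48 for granulocytes and mast cells and 1.81 for skeletal muscle fibres. The ratio for T and NK cells rests on IF mouse 16 at 30.5 CPM, with medians of 3.18 CPM in AL and 3.95 CPM in IF liver. That for muscle fibres rests largely on high IF libraries such as mouse 9 at 9.42 CPM, with medians of 1.73 and 1.91 CPM. In muscle of mice 1-16 osteoclast markers, which Acp5 leads, had a ratio of 4.14 (exact permutation test, adjusted p = 0.0571). Hepatocyte markers in cortex of mice 1-16 reached 3103.8 CPM in AL mouse 4, where the group median was 29.1 CPM. In IF mouse 11 they reached 3367.3 CPM, beside a group median of 16.1 CPM. In mice 25-40 they reached 4270.5 CPM in IF mouse 36, where the group median was 9.49 CPM. In these groups nearly all of the mean was Ttr, which the choroid plexus also expresses. AL mouse 4 also had the highest level of Ctsa, Ctsc, Ctsd, Ctss and Ctsz in AL cortex of mice 1-16. IF mouse 36 is the library with the lowest Snap25 level of its group. It also had the highest levels of Ctsa, Ctsc, Ctsd, Ctsf, Ctsh, Ctsl, Ctss and Ctsz there, and the lowest level of Ctsb.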
